A study of Mus musculus with 12 samples.

Results

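Cytosolic ribosomal proteins are the protein components of the ribosomes that translate nuclear-encoded mRNA, and the genes described here encode them in splenic regulatory T (Treg) cells of mice. Members were the rows of the count table whose symbol is that of a numbered large subunit protein (Rpl), a numbered small subunit protein (Rps), an acidic stalk protein (Rplp0, Rplp1 and Rplp2) or Rpsa. Of 25189 genes in the table, 87 symbols matched, and 4 of these (Rps3a2, Rps3a3, Rpl6l and Rps4l) are annotated as pseudogenes and were left out. The remaining 83 protein-coding members comprised 51 genes of the large subunit and 32 of the small subunit. Enough reads for testing were present for 79 of them, 47 large and 32 small. Those below the low-count filter were Rpl3l, Rpl10l, Rpl23a and Rpl39l.

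RNA was sequenced from 12 libraries of sorted splenic Treg cells of female mice aged 4 weeks, 4 libraries for each of 3 genotypes. Double-deficient cells (Foxp3∆EGFPiCre with Rictor∆/∆) are labelled as lacking both working Foxp3, the lineage factor of Treg cells, and Rictor, the subunit that defines mTOR complex 2. Foxp3-deficient cells (Foxp3∆EGFPiCre) kept Rictor, and WT cells carried the red-reporter allele Foxp3RFP. The Cre recombinase is driven by the altered Foxp3 allele itself, so deletion is expected only in cells that switch that allele on. Per the labels, cells were sorted and sorted again as CD4+RFP+ or CD4+YFP+ from female Foxp3∆EGFPiCre/RFP mice or from Foxp3∆EGFPiCre/+ Rictor∆/∆ mice. All mice carried the R26YFP reporter. Reporter colour and cell genotype therefore cannot be told apart where either mutant group is compared with WT. Mouse genotype and cell genotype cannot be told apart where double-deficient libraries are compared with either other group. Since no label ties a library to a mouse, the p-values describe how these samples spread, which may be technical in part. Replicates are given by genotype and number, as in WT 4.

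In mammalian cells the small subunit holds the mRNA and decodes it, and the large subunit joins the amino acids and carries the exit tunnel for the new chain. Each ribosome needs nearly all ribosomal proteins in equal number, and their mRNAs are short, abundant in growing lymphocytes and start with a run of pyrimidines (a terminal oligopyrimidine, or TOP, tract). The mTOR pathway controls the translation of TOP mRNAs, which RNA levels do not report. Ribosomal protein genes also have many processed pseudogenes, copies of the spliced mRNA scattered over the genome, so that a read from a ribosomal protein mRNA can often be placed at several positions.

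Libraries held 15769737 to 26114044 reads assigned to genes. Foxp3 reads were at 91.8 to 122 CPM (read counts relative to the library total, scaled between libraries by TMM) in double-deficient and 87.9 to 142 CPM in Foxp3-deficient libraries, against 556 to 705 CPM in WT libraries. Rictor was at 130.1 to 156 CPM in double-deficient libraries, 163 to 228 CPM in Foxp3-deficient libraries and 133 to 168 CPM in WT libraries, so that the double-deficient and WT ranges overlapped. A count over the whole gene does not check the deletion of a stretch of it, and the labels do not name the stretch that was removed. T cell markers were present in all libraries (summed level of 8 Treg and T cell markers at least 4738 CPM). Of the 8, edgeR called 1 higher and 3 lower in Foxp3-deficient against WT libraries. In double-deficient libraries 0 were called higher and 3 lower against WT, and 2 higher and 2 lower against Foxp3-deficient libraries. Il2ra averaged 260.5 CPM in double-deficient, 185.5 CPM in Foxp3-deficient and 534 CPM in WT libraries. Ikzf2 averaged 106.5, 140 and 347 CPM, and Ctla4 347, 245.5 and 349 CPM, in the same order. The B cell markers summed to 770 to 937 CPM in double-deficient, 669.5 to 833 CPM in Foxp3-deficient and 1257 to 1485 CPM in WT libraries, and 3 of 4 tested ones were called lower in both mutant groups against WT in edgeR. Most of that sum was Ighm, which averaged 853 CPM in double-deficient, 733 CPM in Foxp3-deficient and 1368 CPM in WT libraries. The other 7 B cell markers averaged at most 21.3 CPM each in any group. The 7 myeloid markers summed to at most 1.85 CPM in any library. The 6 NK and CD8 cell markers summed to 65.0 to 101 CPM in double-deficient, 31.6 to 136 CPM in Foxp3-deficient and 44.1 to 55.9 CPM in WT libraries. Of these 6, edgeR called 2 higher and 0 lower in double-deficient against WT libraries, and 1 higher and 1 lower against Foxp3-deficient libraries. The part of B, NK or CD8 cells in the results was not tested. In a principal component analysis Foxp3-deficient 1 and Foxp3-deficient 3 stood apart from the other libraries of their group, and calls described here that were lost without both are named.

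Ribosomal protein genes took a larger share of the reads in double-deficient libraries than in either other genotype. Their share of all reads assigned to genes was 0.59%, 0.659%, 0.644% and 0.705% in double-deficient 2, 3, 4 and 5. It was 0.271%, 0.521%, 0.435% and 0.438% in Foxp3-deficient 1, 3, 4 and 5, and 0.41%, 0.459%, 0.381% and 0.497% in WT 1, 3, 4 and 5. All double-deficient libraries lay above all libraries of both other groups, and the Foxp3-deficient and WT ranges overlapped. The means were 0.650% ± 0.0473 in double-deficient, 0.416% ± 0.105 in Foxp3-deficient and 0.437% ± 0.0516 in WT libraries (SD, n = 4 each). In such bulk samples, fewer cells of a type and less RNA per cell cannot be told apart. Foxp3-deficient 1 held the lowest share of the 12 libraries, and Foxp3-deficient 4 and 5 alone, at 0.435% and 0.438%, still lay below all double-deficient libraries.

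The share moved with a property of the libraries. Reads in the table's summary entry for alignments that are not unique, taken here as not counted for any gene, made up 32.1% ± 0.85 of all reads in double-deficient, 26.9% ± 2.80 in Foxp3-deficient and 27.0% ± 1.27 in WT libraries (SD, n = 4 each). Within each genotype, too, the libraries had the same order by ribosomal protein share as by reads without a unique alignment, in 18 of 18 pairs of libraries of the same group. Reads outside annotated genes ran the other way between groups, at 5.005% ± 0.366 in double-deficient, 7.83% ± 1.52 in Foxp3-deficient and 8.18% ± 0.507 in WT libraries. Reads of ribosomal protein mRNAs can themselves lack a unique alignment, so the ribosomal protein share and the share of such reads are not independent measures. The part of these library properties in the ribosomal protein share was not tested.

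**Figure D1:**
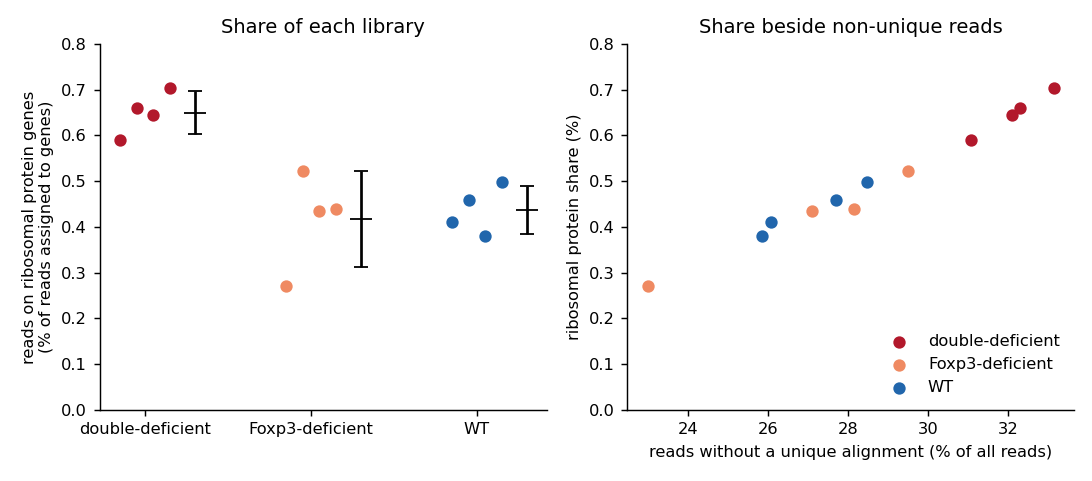
Left, reads on the 83 ribosomal protein genes as percent of reads assigned to genes, with 1 point per library and the group mean ± SD beside it. Right, the same share against the percent of all reads that had no unique alignment. The double-deficient libraries lie between 0.59% and 0.705%, above every other library, and also have the most reads without a unique alignment.

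Reads were spread unevenly over the family. Rpl4, a large subunit protein that lines the exit tunnel, held 22.7% of all family reads. Together with Rps3, a small subunit protein at the mRNA entry, and Rplp0, the base of the stalk, it made up 40.8%, and the 10 leading genes made up 70.3%. At the other end 21 members had fewer than 1000 reads over all 12 libraries and 4 had fewer than 100. Per kilobase of exon, mean levels ran from 570 CPM for Rpl4 and 233.5 CPM for Rplp0 down to 0.611 CPM for Rpl36a, 0.554 CPM for Rpl24 and 0.548 CPM for Rps12 among the members tested. Since a ribosome holds these proteins in equal number, the levels of the low members were set beside how much of their sequence is shared with other genes.

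Sequence sharing was measured as the percent of 50-base stretches of the longest annotated coding sequence that occur in no other gene's annotated transcripts (GENCODE M21, GRCm38). The median was 11.7% over the 83 members, against 100% over 11558 tested genes with a coding sequence. No stretch was specific in 27 members (32.5%), against 1.32% of the tested genes. Over the 79 tested members the specific share and the mean level had a Spearman rho of 0.681, given as a description since these genes share libraries and depth. Members without a specific stretch had a median of 2.73 CPM per kilobase and held 3.9% of family reads. Members with some but under 50% specific stretches had a median of 8.20 CPM per kilobase, and those with at least 50% had a median of 45.0 CPM per kilobase and held 57.7% of family reads.

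The middle 60 bases of the coding sequence show this for a member with few reads and for the pair with the most, each beside the closest match in another annotated gene. Bases that differ from the ribosomal protein gene are in capitals, and positions are counted from 1 at the 5′ end of the window. Rpl23a (chr11:78180932-78183584, minus strand) had 31 reads in all 12 libraries, and its window recurs without a difference in 2 other annotated genes, among them the pseudogene Rpl23a-ps3 (chr14:34170655-34171122, plus strand). Within 2 mismatches it recurs in 25 genes. Rpl4 (chr9:64173375-64178666, plus strand) had 278850 reads, and its closest match, the pseudogene Gm5835 (chr1:143093347-143094616, minus strand), differs by G19T and T38C. Rps3 (chr7:99477896-99483738, minus strand) had 128108 reads, and its closest match, the pseudogene Gm8130 (chr16:23050282-23050851, plus strand), differs by C7G and T43C.
Rpl23a: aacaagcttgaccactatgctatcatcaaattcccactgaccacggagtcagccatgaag
Rpl23a-ps3: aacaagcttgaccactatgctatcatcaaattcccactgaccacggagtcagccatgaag
Rpl4: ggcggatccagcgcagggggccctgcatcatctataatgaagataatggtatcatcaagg
Gm5835: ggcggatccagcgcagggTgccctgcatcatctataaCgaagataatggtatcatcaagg
Rps3: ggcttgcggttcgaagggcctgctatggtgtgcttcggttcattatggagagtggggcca
Gm8130: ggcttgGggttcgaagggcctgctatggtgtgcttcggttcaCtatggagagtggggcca

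**Figure D2:**
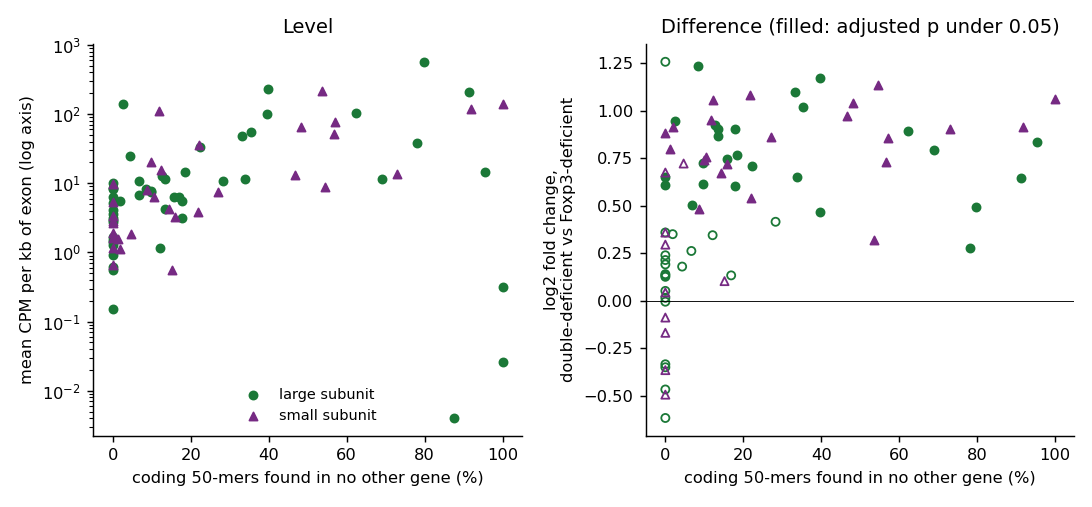
Left, mean CPM per kilobase of exon on a log axis for the 83 members against the percent of coding 50-base stretches found in no other gene. Right, the log2 fold change of double-deficient against Foxp3-deficient libraries for the 79 tested members on the same horizontal axis. Members at 0% reach at most 9.99 CPM per kilobase and scatter around a median log2 fold change of 0.13, while all 13 tested members at 50% or more lie above 0. The 3 low points on the right of the first panel are Rpl3l, Rpl10l and Rpl39l.

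Loss of Rictor on top of Foxp3 loss is the comparison of double-deficient with Foxp3-deficient cells. With edgeR (quasi-likelihood), p-values adjusted after Benjamini-Hochberg for all 13196 genes and a threshold of 0.05, 48 of 79 members were higher in double-deficient libraries and none was lower. That is 60.8% of the tested members, beside 27.2% of all tested genes called and 13.9% called higher. The median log2 fold change was 0.65 over the members, beside -0.02 over all tested genes, and 70 members had a positive value. The 2 groups did not overlap for 45 members, of which 43 were higher and 2 lower in every double-deficient library, beside 13.7% of all tested genes higher and 11.3% lower in every library. Without Foxp3-deficient 1 and 3 the count was 47 and the median 0.61. Without double-deficient 5 the count was 31, and with each library's trend over mRNA length and GC content removed it was 30 higher and 1 lower, with a median of 0.34.

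The stalk proteins recruit elongation factors to the ribosome. Rplp1 was at 64.4, 78.3, 75.6 and 89.0 CPM in double-deficient 2, 3, 4 and 5, against 17.8, 47.2, 31.4 and 39.8 CPM in Foxp3-deficient 1, 3, 4 and 5. WT 1, 3, 4 and 5 had 34.1, 43.8, 30.4 and 54.55 CPM, so that every double-deficient library lay above all others. The log2 fold change of Rplp1 against Foxp3-deficient libraries was 1.17 ± 0.25 (SE, edgeR adjusted p = 0.0051). Rplp2 averaged 29.7 ± 3.87 CPM in double-deficient and 19.0 ± 5.15 CPM in Foxp3-deficient libraries (SD, n = 4 each), a log2 fold change of 0.65 (edgeR adjusted p = 0.0172). Rplp0 averaged 478.5 ± 47.0 CPM in double-deficient and 346 ± 86.5 CPM in Foxp3-deficient libraries, a log2 fold change of 0.47 (edgeR adjusted p = 0.0331). The Rplp0 call was lost without double-deficient 2, 4 or 5, and with either trend correction.

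Among large subunit proteins, 26 of 47 tested members were higher in double-deficient than in Foxp3-deficient libraries, with a median log2 fold change of 0.50. The largest called value of the family belonged to Rpl35, which sits at the mouth of the exit tunnel. It was at 12.8, 18.5, 17.4 and 18.8 CPM in double-deficient 2, 3, 4 and 5, against 3.30, 11.35, 6.41 and 7.67 CPM in Foxp3-deficient 1, 3, 4 and 5. WT 1, 3, 4 and 5 had 6.58, 7.94, 5.36 and 7.79 CPM, and double-deficient libraries overlapped with neither other group. The log2 fold change against Foxp3-deficient libraries was 1.23 ± 0.27 (SE, edgeR adjusted p = 0.00535). Rpl7 averaged 194 ± 29.2 CPM in double-deficient and 90.4 ± 28.5 CPM in Foxp3-deficient libraries (SD, n = 4 each).

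Rpl4, the member with the most reads, had a smaller difference than these. It was at 1415, 1495, 1393 and 1515 CPM in double-deficient 2, 3, 4 and 5, and at 759, 1181, 1157 and 1041 CPM in Foxp3-deficient 1, 3, 4 and 5. WT 1, 3, 4 and 5 had 889, 988, 878 and 1025 CPM, so that all double-deficient libraries lay above the rest. Its log2 fold change against Foxp3-deficient libraries was 0.49 ± 0.11 (SE, edgeR adjusted p = 0.00659). Rpl3, which lies near the peptidyl transferase centre, averaged 91.9 ± 3.84 CPM in double-deficient and 81.1 ± 14.1 CPM in Foxp3-deficient libraries, with overlapping groups (log2 fold change 0.18, edgeR adjusted p = 0.288). Rpl10, required for the joining of the subunits, was at 16.1 to 30.8 CPM in double-deficient and 16.8 to 32.3 CPM in Foxp3-deficient libraries (log2 fold change -0.0048, SE 0.34, edgeR adjusted p = 0.992). No coding stretch of Rpl10 is specific to it, and 16 other annotated genes share 50-base stretches with it.

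**Figure D3:**
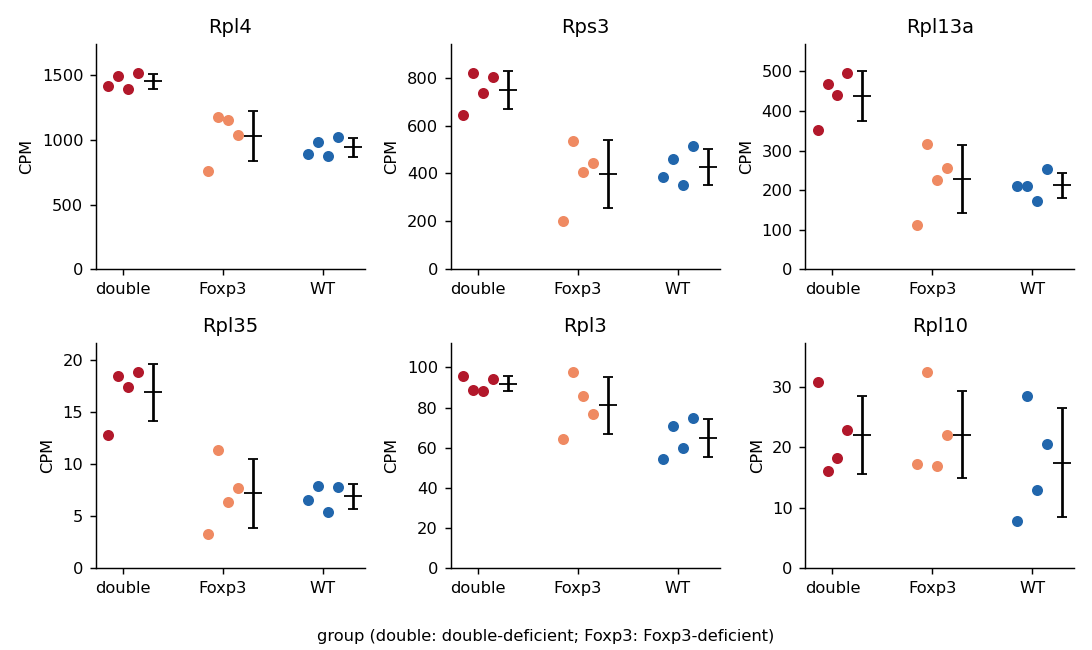
CPM of 6 members in every library, with 1 point per library and the group mean ± SD beside the points (double-deficient, Foxp3-deficient and WT from left to right, each axis from 0). Rpl4, Rps3, Rpl13a and Rpl35 are higher in every double-deficient library than in any other, while the groups overlap for Rpl10, and for Rpl3 the double-deficient libraries overlap with the Foxp3-deficient ones only.

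Among small subunit proteins, 22 of 32 were higher in double-deficient than in Foxp3-deficient libraries, with a median log2 fold change of 0.74. Rps3 was at 643, 817, 734 and 804 CPM in double-deficient 2, 3, 4 and 5, and at 204, 537, 407 and 445 CPM in Foxp3-deficient 1, 3, 4 and 5. WT 1, 3, 4 and 5 had 384, 459.6, 351 and 513 CPM, again all below the double-deficient libraries. For Rps3 the log2 fold change against Foxp3-deficient libraries was 0.91 ± 0.23 (SE, edgeR adjusted p = 0.0129).

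Other small subunit members had values of similar size. Rps21 averaged 10.8 ± 1.85 CPM in double-deficient and 4.90 ± 1.99 CPM in Foxp3-deficient libraries, and Rps24, mutated in some patients with Diamond-Blackfan anaemia, averaged 35.5 ± 5.04 CPM in double-deficient and 16.8 ± 6.49 CPM in Foxp3-deficient libraries (SD, n = 4 each). Rps18, in the head of the subunit, averaged 55.9 ± 9.74 CPM in double-deficient and 26.9 ± 9.33 CPM in Foxp3-deficient libraries. Rps14 averaged 232 ± 32.02 CPM in double-deficient and 113 ± 42.1 CPM in Foxp3-deficient libraries. For all 4 the double-deficient libraries were higher than every Foxp3-deficient library, and the log2 fold changes lay between 1.04 and 1.13. Rpsa, also known as the laminin receptor precursor, averaged 6.64 ± 0.118 CPM in double-deficient and 3.83 ± 1.499 CPM in Foxp3-deficient libraries (log2 fold change 0.80, edgeR adjusted p = 0.0338), a call that was lost when any of 7 of the 8 libraries compared, all but Foxp3-deficient 3, was left out, and under the replicate block (adjusted p = 0.064).

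Among the members not called, a few stood apart in their values. Rps6, the substrate of the S6 kinases, was at 2.48 to 4.01 CPM in double-deficient and 4.03 to 6.69 CPM in Foxp3-deficient libraries, so that the groups did not overlap (log2 fold change -0.49, edgeR adjusted p = 0.169). With the mRNA length and GC trend removed it was the 1 member called lower, at -0.75 (edgeR adjusted p = 0.0474). Rpl24 was the other member lower in every double-deficient library, at 0.270 to 0.562 CPM, against 0.5635 to 0.921 CPM in Foxp3-deficient libraries, on 137 reads in 12 libraries. Rpl38, which mouse embryos need for the translation of some Hox mRNAs, had the largest fitted value without being called (log2 fold change 1.26, SE 0.50, edgeR adjusted p = 0.071), on 168 reads. Of the 31 members not called, 23 had no gene-specific coding stretch, among them Rps6, Rpl24 and Rpl38. Every member with a negative value was of that class, in which 17 of 26 tested members were positive. In the classes with some specific stretches, 40 of 40 and 13 of 13 were positive.

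**Figure D4:**
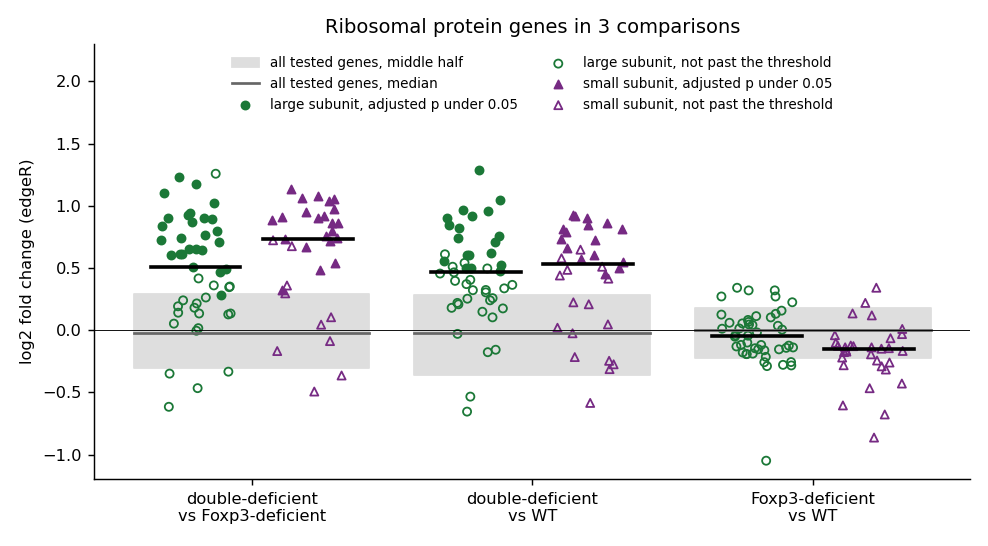
Log2 fold changes from edgeR of the 79 tested members in 3 comparisons, large subunit as circles and small subunit as triangles, filled where the adjusted p was under 0.05. Black bars are the medians of each subunit, and grey shows the median and the range between the 25th and 75th percentile of all 13196 tested genes. The medians of both subunits lie above the grey range in both comparisons of double-deficient libraries (0.50 and 0.74 against Foxp3-deficient, 0.46 and 0.53 against WT), while some members lie inside or below it. No member is filled in Foxp3-deficient against WT.

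Double-deficient cells were also set against WT cells, a comparison that shares its double-deficient libraries with the one above. In edgeR's quasi-likelihood test 35 of 79 members were higher and none lower (44.3%), beside 32.6% of all tested genes called and 15.8% called higher. The median log2 fold change was 0.50, beside -0.03 over all tested genes. All double-deficient libraries were above all WT libraries for 42 members and below them for 1, beside 20.5% and 19.2% of all tested genes. The count fell to 14 without WT 4, 18 without WT 1, 20 without double-deficient 5 and 23 without double-deficient 3, and with no low-count filter it was 19. Of the 50 members called in either comparison, 33 were called in both.

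By subunit, 19 of 47 large subunit members (median log2 fold change 0.46) and 16 of 32 small subunit members (median 0.53) were higher in double-deficient than in WT libraries. Rpl35 led again, at a log2 fold change of 1.29 ± 0.27 (SE, edgeR adjusted p = 0.00247). Rpl13a, which in human myeloid cells also takes part in silencing of inflammatory mRNAs, averaged 438 ± 62.3 CPM in double-deficient and 212 ± 32.5 CPM in WT libraries (SD, n = 4 each), a log2 fold change of 1.05 (edgeR adjusted p = 0.00706). Rpl7, Rps14, Rps24 and Rps18 had log2 fold changes between 0.86 and 0.95. Rpl4, whose values by library are given above, had a log2 fold change of 0.62 ± 0.11 (SE, edgeR adjusted p = 0.000839).

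Some members had different positions in the comparisons with the 2 references. Rpl3 averaged 91.9 ± 3.84 CPM in double-deficient and 65.0 ± 9.42 CPM in WT libraries without overlap (log2 fold change 0.50, edgeR adjusted p = 0.0067), while its Foxp3-deficient libraries overlapped with both. Rpl5, which with Rpl11 and ribosomal RNA binds the p53 regulator Mdm2, was the 1 member lower in every double-deficient library, at 2.25 to 3.20 CPM, against 4.17 to 4.41 CPM in WT libraries. Its log2 fold change of -0.65 missed the threshold (edgeR adjusted p = 0.064) and passed it in DESeq2 (adjusted p = 0.0452) and with either trend removed. No coding stretch of Rpl5 is specific to it, and the part of dropped or misplaced reads in its low values was not tested. The calls of Rpl39 and Rps4x against WT were lost without WT 1, 3 or 4 or without double-deficient 3, 4 or 5, that of Rps21 without WT 1 or 4 or double-deficient 3, 4 or 5, and that of Rps3 without WT 4.

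Foxp3-deficient cells were set against WT cells, which differ from them in the Foxp3 allele and, with it, in Cre and the sorted reporter. No member passed the threshold in edgeR's quasi-likelihood test, beside 13.7% of all tested genes (6.99% higher and 6.74% lower), and the median log2 fold change was -0.13, beside 0.00 over all tested genes. At an unadjusted p under 0.05 there were 5 members, 2 higher and 3 lower. DESeq2 called 3, of which Rps27l and Rps23 were lower, and limma-voom called 0. Single libraries mattered here, since 3 members were called without Foxp3-deficient 1, 1 without Foxp3-deficient 3 and 1 without Foxp3-deficient 5, and 2 without both Foxp3-deficient 1 and 3. All Foxp3-deficient libraries were below all WT libraries for 2 members and above them for none, beside 9.26% lower and 8.52% higher of all tested genes.

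The members that did not overlap were Rps27l and Rps23. Rps27l, a paralog of Rps27 that p53 induces, was at 4.11, 8.35, 8.78 and 8.80 CPM in Foxp3-deficient 1, 3, 4 and 5, against 12.2, 11.0, 9.88 and 15.1 CPM in WT 1, 3, 4 and 5 (log2 fold change -0.68, edgeR adjusted p = 0.0629). In double-deficient 2, 3, 4 and 5 it stood at 10.2, 14.8, 16.1 and 15.1 CPM, above all Foxp3-deficient libraries and overlapping with WT. Rps23, with no gene-specific coding stretch and 360 reads in all, was at 0.827 to 1.17 CPM in Foxp3-deficient and 1.59 to 1.78 CPM in WT libraries (log2 fold change -0.86, edgeR adjusted p = 0.0556).

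The subunits were also compared within each library. Large subunit genes made up 0.404% ± 0.0235 of assigned reads in double-deficient, 0.274% ± 0.0611 in Foxp3-deficient and 0.281% ± 0.0288 in WT libraries (SD, n = 4 each). Small subunit genes made up 0.246% ± 0.0244 in double-deficient, 0.142% ± 0.0443 in Foxp3-deficient and 0.156% ± 0.0229 in WT libraries. The log2 ratio of large to small subunit reads was 0.72 ± 0.0746 in double-deficient, 0.98 ± 0.167 in Foxp3-deficient and 0.85 ± 0.0683 in WT libraries. The ratio ranged from 0.66 to 0.83 in double-deficient, from 0.82 to 1.20 in Foxp3-deficient and from 0.78 to 0.94 in WT libraries, so that all 3 ranges overlapped. Foxp3-deficient 1, with the lowest family share, had the highest ratio.

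The paralogs of ribosomal proteins differ in where they are known to be used. Rpl22, which mice need for the development of conventional T cells, averaged 44.4 ± 3.77 CPM in double-deficient, 25.6 ± 7.63 CPM in Foxp3-deficient and 29.2 ± 4.36 CPM in WT libraries, and the double-deficient libraries overlapped with neither other group. Its log2 fold change against Foxp3-deficient libraries was 0.80 and against WT libraries 0.60 (edgeR adjusted p = 0.00491 and 0.0148), and the second call was lost without WT 1 or 4. Rpl22l1, which Rpl22 represses in mouse cells, averaged 16.5 ± 2.87 CPM in double-deficient, 9.82 ± 3.53 CPM in Foxp3-deficient and 12.02 ± 2.42 CPM in WT libraries. It was called against Foxp3-deficient libraries (log2 fold change 0.74, edgeR adjusted p = 0.0285), though not without Foxp3-deficient 1 or 4 or double-deficient 2 or 5 and not with the mRNA length and GC trend removed (0.34, adjusted p = 0.207). Rpl7l1, a nucleolar relative of Rpl7, averaged 148 ± 10.8 CPM in double-deficient and 122 ± 12.8 CPM in Foxp3-deficient libraries with overlap (log2 fold change 0.28, edgeR adjusted p = 0.029), a call lost without Foxp3-deficient 1 or 3 or double-deficient 3 or 5, and without both Foxp3-deficient 1 and 3 (0.15, edgeR adjusted p = 0.214).

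The paralogs known mainly from testis or muscle were near 0. Rpl10l, a testis gene, had 1 read in 12 libraries, and Rpl3l, a muscle gene, had 4 reads in double-deficient, 4 in Foxp3-deficient and 2 in WT libraries. Rpl39l, best known from testis, had 48 reads in double-deficient libraries, 3 in Foxp3-deficient libraries and 14 in WT libraries. By library it was at 0.0990, 1.13, 0.375 and 0.711 CPM in double-deficient 2, 3, 4 and 5, against 0.113, 0.246, 0.184 and 0.126 CPM in WT 1, 3, 4 and 5. Double-deficient 2 was therefore below all WT libraries and the other double-deficient libraries above them. The ratio of reads per assigned read was 14.6 for double-deficient against Foxp3-deficient libraries (95% counting interval 4.71 to 73.4) and 3.31 against WT libraries (1.79 to 6.49), which covers counting error only and not the spread between libraries.

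Differences between the groups differed by how specific the sequence of a member was. Against Foxp3-deficient libraries, all 13 tested members with at least 50% specific stretches were higher in double-deficient libraries (median log2 fold change 0.83), as were 32 of 40 with some but under 50% (median 0.74) and 3 of 26 with none (median 0.13). The 3 were Rpl13, Rpl15 and Rps23, and none of the 3 was called with the mRNA length and GC trend removed (edgeR adjusted p = 0.0937, 0.321 and 0.186). Rps23 was also lost without Foxp3-deficient 1 or 4 or double-deficient 3 or 5, Rpl13 without double-deficient 4, and Rps23 and Rpl15 without both Foxp3-deficient 1 and 3 (edgeR adjusted p = 0.122 and 0.0616). Against WT libraries the counts were 11 of 13 (median 0.66), 23 of 40 (median 0.56) and 1 of 26 (median 0.14). The classes also differ in depth, since the median member had 16118 reads with at least 50% specific stretches, 5016 reads with under 50% and 1018 reads with none. Among members with a mean of at least 5 CPM, 2 of 11 without a specific stretch were called against Foxp3-deficient libraries, with a median of 0.14, beside 30 of 34 and 13 of 13 in the other classes.

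All tested genes were grouped in the same way. Of tested genes without a specific stretch, 16 of 152 were called in either direction between double-deficient and Foxp3-deficient libraries (10.5%), beside 28.6% of 672 genes with under 50% and 29.3% of 10734 genes with at least 50% specific stretches. Called higher were 7.89%, 23.2% and 14.8% of the genes in these classes, which include the members. Median log2 fold changes of these genes were 0.11, 0.17 and -0.02. Members without a specific stretch took 0.0203% of assigned reads in double-deficient, 0.0189% in Foxp3-deficient and 0.0202% in WT libraries. Members with at least 50% specific stretches took 0.373% in double-deficient, 0.243% in Foxp3-deficient and 0.251% in WT libraries. The part of dropped or misplaced reads in these values was not tested, and unannotated copies are not counted in the specific share.

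Ribosomal protein mRNAs are short, and short mRNAs were higher in double-deficient libraries in general. Of 79 tested members, 71 fell into the shortest of 5 classes of mRNA length, up to 1454 bases. Against Foxp3-deficient libraries, all 2615 genes in that class had a median log2 fold change of 0.28, with 690 called higher and 73 lower, while the 71 members had a median of 0.65, with 42 called higher. In the longest class the median of all genes was -0.26. Against WT libraries the medians were 0.47 for the 71 members and 0.16 for all genes of the class. Within the family, mRNA length and the log2 fold change had a Spearman rho of -0.02 against Foxp3-deficient and 0.09 against WT libraries, over 79 members that share libraries, beside -0.349 and -0.235 over 13072 genes.

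**Figure D5:**
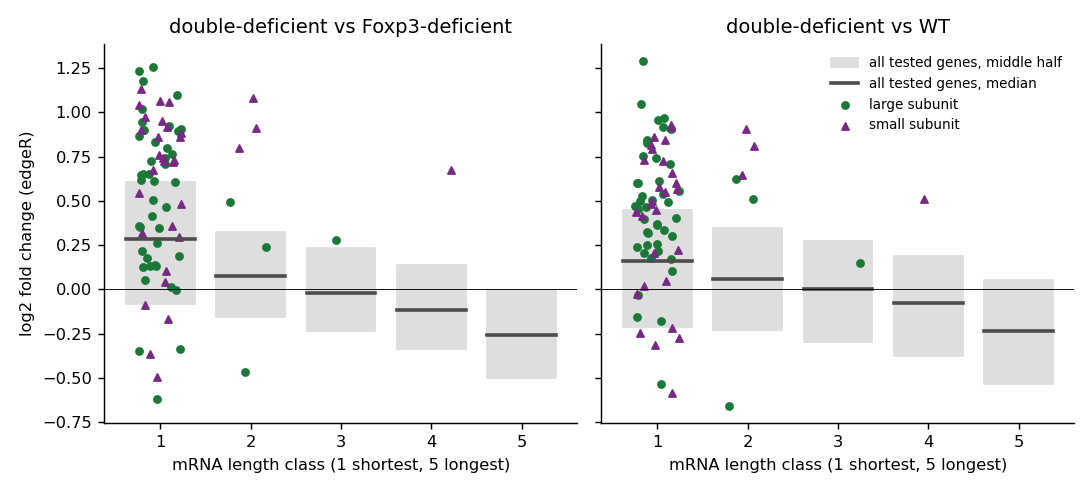
Log2 fold changes from edgeR of the 79 tested members by mRNA length class (5 classes of about equal gene number over all tested genes), for double-deficient against Foxp3-deficient and against WT libraries. Grey boxes span the 25th to 75th percentile of all tested genes in the class and dark bars their median. The median of all genes declines from 0.28 in the shortest to -0.26 in the longest class on the left, and most of the 71 members in the shortest class lie above it.

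Other families of short mRNAs moved the same way. Of 75 tested mitochondrial ribosomal protein genes, 32 were higher in double-deficient than in Foxp3-deficient libraries and none lower (median log2 fold change 0.42), and of 68 nuclear-encoded subunits of oxidative phosphorylation 39 were higher and none lower (median 0.54). These are 42.7% and 57.4% of the families, beside 13.9% of all tested genes higher and 26.4% of those in the shortest mRNA class. Against WT libraries 17 and 19 were higher (22.7% and 27.9%, beside 15.8% of all tested genes and 18.4% of the shortest class), with medians of 0.25 and 0.34. In Foxp3-deficient against WT libraries each family had 1 gene lower and none higher. The coding sequences of these families are mostly specific, with a median of 100% for mitochondrial ribosomal proteins and 97.1% for the oxidative phosphorylation subunits. With the mRNA length and GC trend removed, the median against Foxp3-deficient libraries was 0.34 for cytosolic ribosomal proteins, beside 0.65 without the correction, with 30 higher and 1 lower. The medians of mitochondrial ribosomal proteins and of oxidative phosphorylation subunits were then 0.27 and 0.30. Against WT libraries the 3 medians were 0.35, 0.21 and 0.22 with that trend removed.

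Ribosomal proteins that the naming rule does not reach, and other mRNAs known to carry a TOP tract, were read from lists chosen with earlier results known. Rpl36al averaged 16.4 ± 2.96 CPM in double-deficient and 8.55 ± 3.69 CPM in Foxp3-deficient libraries, a log2 fold change of 0.94 (edgeR adjusted p = 0.0252) that was not called without Foxp3-deficient 4 or double-deficient 3 or 5. Fau, a ubiquitin-like fusion, had a log2 fold change of 0.58 and missed the threshold. Of 22 other TOP genes, 10 were higher in double-deficient than in Foxp3-deficient libraries and none lower (median log2 fold change 0.32), and 10 were higher than in WT libraries (median 0.39). That is 45.5% in each, beside 13.9% and 15.8% of all tested genes higher, and 26.4% and 18.4% of those in the shortest mRNA class. Those with the smallest adjusted p against Foxp3-deficient libraries were the initiation factor subunits Eif3e (0.84) and Eif3m (0.88), the nucleolar chaperone Npm1 (0.92) and the elongation factor subunit Eef1b2 (0.69). The abundant elongation factor Eef1a1 averaged 1104 CPM in double-deficient, 869 CPM in Foxp3-deficient and 829.7 CPM in WT libraries. None of the 22 was called in Foxp3-deficient against WT libraries. With the mRNA length and GC trend removed, 6 of the 22 were higher and 1 lower in double-deficient against Foxp3-deficient libraries. Against WT libraries 13 were then higher and 0 lower.

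Start sites of the members were inspected for pyrimidine runs, since the TOP tract begins at the first base of the mRNA. The letters CTTTCC, chosen after looking at these start sites, were searched from 20 bases before to 30 bases after each RefSeq start (GRCm38.p6), on both strands, and no other motif was searched. On the strand of the gene they occurred in 12 of 63 matched member genes (19.0%) and in 2.8% of 27025 genes. On the other strand they occurred in 1 member gene (1.6%) and in 2.7% of all genes. Since the letters were picked from these same start sites, the shares are a description and no test of the members. The 30 bases around the start (15 on each side) are shown for the member with the largest called differences and for 2 others, with the letters in capitals: Rpl35 (chr2:39005117-39005146, minus strand), Rpl13a (chr7:45128731-45128760, minus strand) and Rpl28 (chr7:4792950-4792979, plus strand). The letters began at position -5 in Rpl35, 10 in Rpl13a and 3 in Rpl28, counted with the first base of the mRNA as 1. None of the matches shown begins at the annotated first base, while that of Rpl38, not shown, does (position 1). Whether any match is a TOP tract was not tested. A match describes the letters and no bound factor, and Rpl35 and Rpl13a were called in both comparisons of double-deficient libraries while Rpl28 was called in neither.
Rpl35: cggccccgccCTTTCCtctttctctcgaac
Rpl13a: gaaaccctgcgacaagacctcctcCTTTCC
Rpl28: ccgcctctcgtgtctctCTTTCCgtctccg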

How the data were processed

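The authors deposited raw, unnormalized counts of reads for each gene in each library. STAR 2.5.1b, HTSeq and the build mm10 (GRCm38) are named in the submitters' processing notes. Not given in the sources used here are HTSeq's version, the strand setting, the annotation release and how reads without a unique alignment were handled. Per the labels' protocols, cDNA came from the SMART-Seq v4 kit, and the library kit is named in 2 ways. In the table's summary entries, reads on overlapping genes or without a unique alignment stand apart from the genes' counts. Gene models were GENCODE M21, matched for 97.5% of genes.

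R 4.3.3 with edgeR 4.0.16 served for the low-count filter (filterByExpr), TMM scaling, CPM and a robust quasi-likelihood fit over 12 libraries without covariates. The test was checked on simulated counts with known changes in the Foxp3-deficient libraries. Against WT libraries it recovered 35.4% of 1.5-fold and 66.3% of 2-fold changes and called 9 unchanged genes. A gene without a call is therefore not shown to be unchanged. Alternatives used other scalings and filters, DESeq2 1.42.0, limma-voom 3.58.1, length and GC trends (spline with 5 degrees of freedom), the replicate block, added pseudogene reads, and libraries left out. Removing the mRNA length trend, and leaving out Foxp3-deficient 1 and 3, were chosen after seeing the data. Members and lists were chosen with earlier results of these data known.

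Named members were Rpsa, the stalk proteins, paralog pairs, the called members with the largest fold changes per subunit, the highest and lowest per kilobase, and those below the filter. From other lists, called genes with the smallest adjusted p were named. Rps3, Rps6, Rps23, Rpl5, Rpl13, Rpl15, Rpl28, Rpl38, Fau, Polr1a and Larp1 were chosen after their values were seen. Counting intervals cover counting error only. Some genes are not reported here by name and stay in the counts.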

Additional observations from a re-analysis of the deposited data

Results flagged for a closer look

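Among 123 sets of 4 libraries examined, 7 held 1 library far from the other 3, and chance alone flags about 1 in 20. Rps27l was at 4.11 CPM in Foxp3-deficient 1, against 8.35 to 8.80 CPM in the other Foxp3-deficient libraries. The other 6 rest on few reads. Rpl38 was at 1.59 CPM in double-deficient 5, against 0.656 to 0.743 CPM in the rest of its group. In Foxp3-deficient 3, Rps12 was at 1.35 CPM (others 0.910 to 0.982 CPM) and Rpl24 at 0.921 CPM (others 0.5635 to 0.5955 CPM). Rps23 was at 1.17 CPM in Foxp3-deficient 5 (others 0.827 to 0.866 CPM). Rpl23a was at 0.315 CPM in double-deficient 3 (others 0.141 to 0.164 CPM). Rpl10l was at 0.0495 CPM in double-deficient 2, from its single read, and at 0 in the others.

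The pseudogene row Rps4l, a processed copy on chromosome 6 outside the members, averaged 6.46 ± 0.848 CPM in double-deficient, 2.96 ± 1.48 CPM in Foxp3-deficient and 2.20 ± 0.169 CPM in WT libraries (SD, n = 4 each). Its log2 fold change in double-deficient against WT libraries was 1.55 (edgeR adjusted p = 0.00238), larger than that of any of the 79 tested members, and every double-deficient library lay above every other library. The part of reads from other copies in this row was not tested.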

How the results depend on the processing

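Of the alternatives run, those that moved a count of called members by over 1.5 times were these. In Foxp3-deficient against WT libraries, with 0 called, no low-count filter gave 1, the replicate block 2, DESeq2 3, the length and GC trend removed 4, the mRNA length and GC trend removed 3, the block with the length and GC trend removed 3, leaving out Foxp3-deficient 1 and 3 gave 2, and leaving out single libraries gave 0 to 3. In double-deficient against Foxp3-deficient libraries the count was 31 with the mRNA length and GC trend removed and 31 with the block and the length and GC trend removed (30 higher and 1 lower in each), and 31 to 51 without single libraries. In double-deficient against WT libraries no filter gave 19 and single libraries left out gave 14 to 34. Medians moved to 0.34 and 0.35 in these 2 comparisons with the mRNA length and GC trend removed. As a share of all reads in the table, including unassigned ones, the family took 0.393% in double-deficient, 0.260% in Foxp3-deficient and 0.272% in WT libraries. Directions reversed for Rpl3 in double-deficient against Foxp3-deficient libraries (-0.0104 with the mRNA length and GC trend removed), for Rps27l against WT (-0.0001 and -0.04 with the exonic and the mRNA length trend removed) and for Rpl10 against Foxp3-deficient libraries (0.0006 with relative log expression scaling, 0.01 with upper quartile scaling, 0.0103 with no filter, 0.0047 with limma-voom, 0.18 without Foxp3-deficient 1 and 3, and -0.21 to 0.24 without single libraries). The causes were not tested.

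Deviations of same-numbered replicates had correlations of 0.157, 0.102, 0.029 and 0.203 between Foxp3-deficient and WT libraries, beside -0.261 to 0.188 for other pairs, and of -0.052 to 0.062 with double-deficient libraries. No label says that equal numbers share a mouse, and since 1 of the 4 was under 0.1 they were not treated as pairs. Whether Foxp3-deficient and WT libraries of 1 number share a mouse was not tested. The replicate block gave 40 calls against Foxp3-deficient and 26 against WT libraries. Depth limits the 21 members with under 1000 reads.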

Other observations

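Genes that build ribosomes had calls in both directions as long as the mRNA length and GC trend was not removed. Of 28 ribosome biogenesis genes, edgeR's quasi-likelihood test called 9 higher and 2 lower in double-deficient against Foxp3-deficient libraries, with a median log2 fold change of 0.15, and 11 were higher and 1 lower than in WT libraries. The shares called were 39.3% and 42.9%, beside 27.2% and 32.6% of all tested genes. With the mRNA length and GC trend removed, 10 were higher and 0 lower against Foxp3-deficient libraries, and 13 higher and 0 lower against WT libraries. Wdr12, which with Pes1 and Bop1 forms a complex for large subunit maturation, averaged 77.3 ± 5.11 CPM in double-deficient, 42.3 ± 5.84 CPM in Foxp3-deficient and 31.1 ± 4.30 CPM in WT libraries (SD, n = 4 each). Its log2 fold change was 0.87 against Foxp3-deficient and 1.31 against WT libraries (edgeR adjusted p = 0.000256 and 1.31e-06), and 0.44 in Foxp3-deficient against WT libraries (edgeR adjusted p = 0.0208, lost without WT 1 or 4 or Foxp3-deficient 5). Pes1, the snoRNP component Nop58 and the pseudouridine synthase Dkc1 were also higher in double-deficient than in Foxp3-deficient libraries (log2 fold changes 0.41, 0.56 and 0.46). Polr1a, the largest subunit of RNA polymerase I, was lower (-0.44, edgeR adjusted p = 0.0385), though the call was lost without any of 6 of the 8 libraries, all but Foxp3-deficient 3 and double-deficient 2, and with the mRNA length and GC trend removed.

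Of 19 tested regulators of ribosomal protein synthesis, 1 was called higher and 4 lower in double-deficient against Foxp3-deficient libraries. That share of 26.3% is close to the 27.2% of all tested genes called, and with the mRNA length and GC trend removed 4 were higher and 1 lower. Tsc1 and Tsc2, which restrain mTOR complex 1, had log2 fold changes of -0.63 and -0.40, and the kinase Mtor -0.64. The higher gene was Eif4ebp1, which holds back cap-dependent translation (0.77, edgeR adjusted p = 0.0171, lost without Foxp3-deficient 4 or double-deficient 5, and at an adjusted p of 0.0568 without both Foxp3-deficient 1 and 3). Rictor itself, which the double-deficient cells are labelled as lacking, was also among the 4 lower genes (-0.42, edgeR adjusted p = 0.0129). In Foxp3-deficient against WT libraries Rictor was the 1 regulator called, with a higher level (0.35, edgeR adjusted p = 0.0494). In double-deficient against Foxp3-deficient libraries Tsc1, Tsc2, Mtor and Rictor missed the threshold with the mRNA length and GC trend removed, at -0.297, -0.132, -0.275 and -0.197. Larp1, the protein that binds TOP mRNAs, averaged 258 CPM in double-deficient, 265 CPM in Foxp3-deficient and 277.5 CPM in WT libraries and was called in no comparison.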
